A study of Rattus norvegicus with 15 samples.

Results

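The genes described here are the bile acid receptor, the bile acid synthesis and conjugation enzymes and the hepatocyte bile acid and phospholipid transporters of the rat. They comprise 10 genes: Nr1h4, Nr0b2, Baat, Slc27a5, Cyp8b1, Cyp27a1, Cyp7b1, Abcb11, Abcb4 and Slc10a1. They were taken as the non-control probes whose transcript accession belongs to these symbols, out of 16678 symbols on the array. All 10 had a probe, and 9 passed the filter on dim probes and were tested among 19803 genes. Cyp7b1 did not pass it.

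Primary hepatocytes of male Wistar rats (spelled Wister in the labels), bought frozen, were pre-cultured for 24 h and then kept for 24 h with the solvent DMSO or with 30 µM of a compound. The compounds were naphthalene, 1-naphthol (naphthalene with a hydroxyl group), and 1,5-naphthalenediol and 2,7-naphthalenediol, which carry a pair of hydroxyl groups and differ in their positions. Each of the 5 groups had 3 one-colour arrays of total RNA, which the study's text describes as independent experiments. The question was how far hepatotoxicity data can be read across from analogs to naphthalene. No genotype or other agent differed between the groups, and the sources used here do not state the donors' number or age.

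Hepatocytes make bile acids from cholesterol along a classical route that starts with Cyp7a1 and an alternative route that starts with Cyp27a1 in mitochondria. Returning unconjugated bile acids are activated to coenzyme A thioesters by Slc27a5. Bile acids are joined to taurine or glycine by Baat, exported into bile by Abcb11 and taken up again from blood by Slc10a1. Bile acids activate the nuclear receptor FXR, encoded by Nr1h4, which induces Nr0b2 (the repressor SHP) and Abcb11 and lowers synthesis.

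Sequence upstream of the transcription start was found for 7 of the 10 genes in RefSeq promoters of assembly GRCr8, and not for Nr1h4, Cyp7b1 and Abcb11. The 250 bases before the start are printed for 4 genes: Cyp27a1, the synthesis gene below DMSO with every compound, Baat and Slc27a5, the conjugation enzymes that gave different results, and Abcb4, which shares a motif with Baat. The positions are chr9:83713282-83713531 on the plus strand for Cyp27a1, chr5:68656138-68656387 on the minus strand for Baat, chr1:82699336-82699585 on the minus strand for Slc27a5 and chr4:26164146-26164395 on the minus strand for Abcb4. Each is written 5′ to 3′ on the gene's strand, and capitals mark the matches to the motifs searched.
Cyp27a1: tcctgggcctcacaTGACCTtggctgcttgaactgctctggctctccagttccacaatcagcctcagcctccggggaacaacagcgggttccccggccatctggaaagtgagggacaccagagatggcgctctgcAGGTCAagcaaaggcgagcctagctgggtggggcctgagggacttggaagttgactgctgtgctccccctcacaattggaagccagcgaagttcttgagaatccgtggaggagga
Baat: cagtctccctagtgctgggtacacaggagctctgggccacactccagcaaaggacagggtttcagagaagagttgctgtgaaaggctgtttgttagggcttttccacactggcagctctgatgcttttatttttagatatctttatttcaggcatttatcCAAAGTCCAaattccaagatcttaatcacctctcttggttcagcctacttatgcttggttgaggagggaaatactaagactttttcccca
Slc27a5: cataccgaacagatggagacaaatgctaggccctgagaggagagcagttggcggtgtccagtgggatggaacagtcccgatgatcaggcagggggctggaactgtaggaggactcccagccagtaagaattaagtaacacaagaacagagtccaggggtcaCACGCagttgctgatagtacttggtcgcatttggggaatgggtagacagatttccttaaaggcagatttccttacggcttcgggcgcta
Abcb4: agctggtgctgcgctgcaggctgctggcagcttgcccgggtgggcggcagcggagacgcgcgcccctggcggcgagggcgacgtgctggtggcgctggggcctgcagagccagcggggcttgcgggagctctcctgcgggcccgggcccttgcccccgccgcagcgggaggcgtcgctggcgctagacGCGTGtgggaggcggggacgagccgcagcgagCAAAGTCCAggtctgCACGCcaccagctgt

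The motifs were searched on both strands in the same 250 bases of all 33469 promoters. AGGTCA, the hexamer that many nuclear receptors bind, was found in Cyp27a1 on both strands and in Slc10a1, 2 of 7 genes against 14.1% of all promoters. An HNF4 motif, CAAAGTCCA, named for a receptor that maintains hepatocyte genes, lay in Baat and Abcb4, 2 of 7 against 0.338%. The core of the xenobiotic response element, GCGTG, was found in Nr0b2, Slc27a5 and Abcb4, 3 of 7 against 25.9%. The antioxidant response core TGACNNNGC lay in Cyp8b1 alone, 1 of 7 against 10.1%. An inverted repeat of AGGTCA with 1 base between the copies, the type of element bound by FXR, was in 0 of 7 and in 0.0269% of all promoters. A match describes these letters only, and no binding was measured.

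Between 57.4% and 61% of the gene spots of an array exceeded background by the test of the Feature Extraction software, the measure called well above background here. All 12 hepatocyte markers were measured, among them Alb, Ttr and Apoa1. The summed level of these 12 markers (log2) was 9.21 to 9.24 in DMSO and 9.09 to 9.20 over the 12 arrays with a compound, so DMSO lay highest with no overlap. Of 8 markers each, 3 of bile duct cells, 5 of stellate cells, 2 of macrophages and 2 of endothelial cells passed the filter, and the bile duct keratins Krt7 and Krt19 did not. The summed bile duct level was -0.12 to -0.05 in DMSO, -0.37 to -0.26 with 2,7-naphthalenediol, -0.35 to -0.29 with 1,5-naphthalenediol, -0.43 to -0.32 with 1-naphthol and -0.10 to -0.07 with naphthalene. The 3 bile duct markers summed, Epcam, Sox9 and Slc10a2, did not move together. With 1-naphthol 1 was called higher and 1 lower, with naphthalene 1 higher and 0 lower, and with each diol 0 higher and 1 lower. The shares of all genes called are given below. The summed level of the 2 measured macrophage markers, Cd68 and Cd14, was 0.38 to 0.53 in DMSO, 0.49 to 0.66 with 2,7-naphthalenediol, 0.71 to 0.77 with 1,5-naphthalenediol, 0.61 to 0.66 with 1-naphthol and 0.49 to 0.62 with naphthalene, so 1,5-naphthalenediol and 1-naphthol lay above DMSO. Of these markers Cd14 was called higher with 1,5-naphthalenediol (0.30, adjusted p = 0.00316) and Cd68 was not (-0.22, 0.155). The summed stellate and endothelial markers overlapped DMSO with every compound. The part of these shifts in the results was not tested, and in these bulk samples fewer cells of a type and less RNA per cell cannot be told apart. Slide 1 held DMSO, 2,7-naphthalenediol and replicates 1 and 2 of 1,5-naphthalenediol, and slide 2 held the rest, so DMSO shared no slide with 1-naphthol or naphthalene. A model with the slide as a block compares those pairs only through 1,5-naphthalenediol, which has 1 array on slide 2, replicate 3. The whole slide correction is the difference of that array from replicates 1 and 2. Among DMSO and the diols this model gives the same differences as slide 1 alone. For 1,5-naphthalenediol against these groups it equals leaving out replicate 3, so these are not separate checks. Against 1-naphthol and naphthalene the model gives 1,5-naphthalenediol the same differences as slide 2 alone, which rest on replicate 3. The slide-block value is given where it changes a result.

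Every level below is a log2 signal relative to the 75th percentile of its own array, so 0 is that percentile, and levels of different genes are not compared. A gene was called when limma's Benjamini-Hochberg adjusted p over all 19803 genes was below 0.05. The F test called a difference among the 5 groups for 4 of the 9 genes tested, Nr1h4, Baat, Cyp27a1 and Abcb11, where 44.7% of all genes were called. With 2,7-naphthalenediol 1 of 9 was called against DMSO (11% of all genes), 0 higher (6.2%) and 1 lower (4.84%). With 1,5-naphthalenediol 4 of 9 were called (22.1%), 2 higher (9.41%) and 2 lower (12.7%). With 1-naphthol 3 of 9 were called (20.8%), 2 higher (10.2%) and 1 lower (10.6%). With naphthalene 2 of 9 were called (25.1%), 1 higher (12.5%) and 1 lower (12.6%). The median difference from DMSO of the 9 genes was 0.03 with 2,7-naphthalenediol, 0.11 with 1,5-naphthalenediol, 0.19 with 1-naphthol and 0.04 with naphthalene, while the medians over all genes were -0.02, -0.01, -0.004 and -0.002. Leaving out a single array leaves fewer arrays in a group, and it never raised the shares of all genes called against DMSO. Leaving out each array in turn gave 3.7% to 8.15%, 15.2% to 22.1%, 10% to 15.7% and 13% to 25.1% called in either direction with the 4 compounds. A call lost this way does not by itself show that the difference rests on the array left out. Groups without overlap were common: with the 4 compounds, 16.2%, 16.6%, 22.9% and 20.5% of all genes lay wholly above DMSO. Wholly below DMSO lay 22.2%, 21.6%, 24.1% and 20.8%. The 4 comparisons share the same DMSO arrays, so their values are given side by side only. Over these and the 6 comparisons between compounds there were 20 calls, and a fit without the filter on dim probes, which tests many more probes, kept 7 of them: Cyp27a1 and Abcb11 with 1,5-naphthalenediol and Nr1h4 and Baat with 1-naphthol against DMSO, Abcb11 of 1,5-naphthalenediol against 1-naphthol and against naphthalene, and Nr1h4 of 2,7-naphthalenediol against 1-naphthol.

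**Figure D1:**
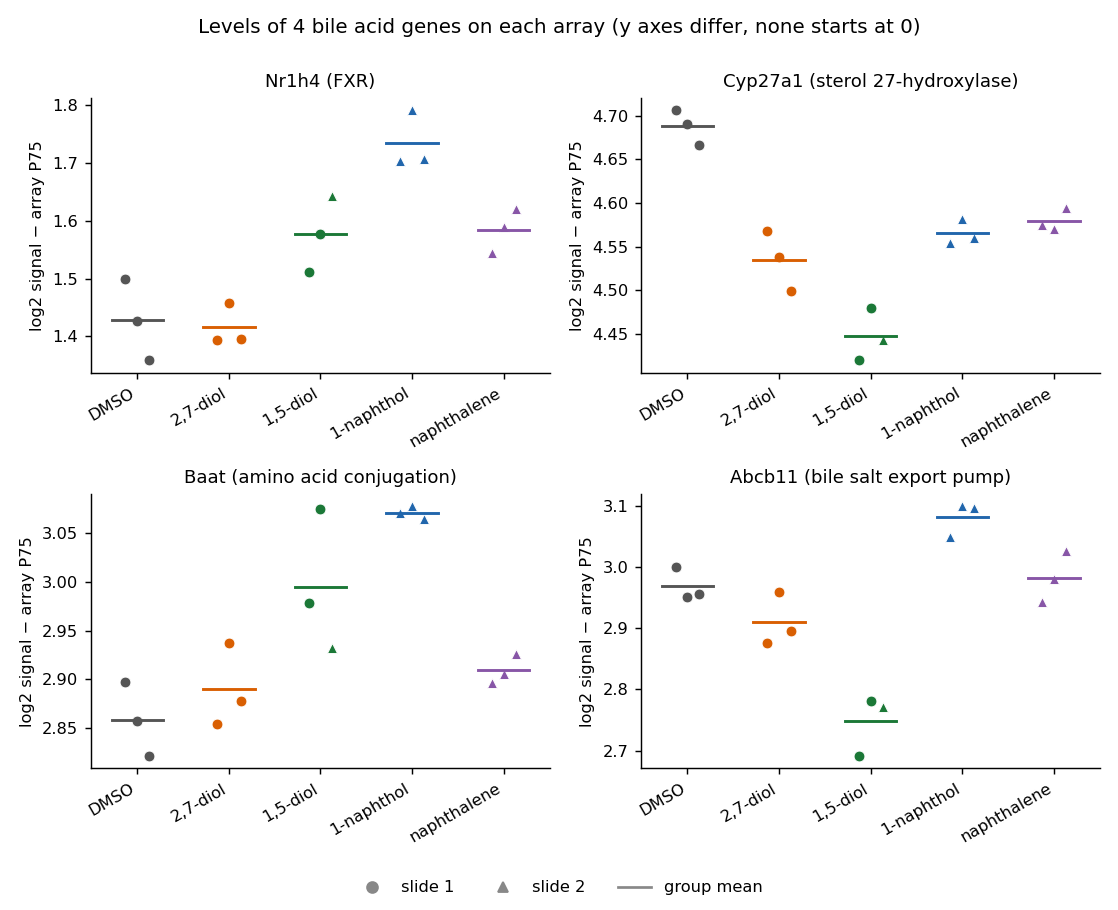
Log2 level relative to the array's 75th percentile (vertical axis) of the bile acid genes in each array, by group, with circles for slide 1, triangles for slide 2 and a line at the group mean. The 3 1-naphthol arrays of Nr1h4 lie at 1.70 to 1.79, above the 1.36 to 1.5 of DMSO, and the 3 1,5-naphthalenediol arrays of Abcb11 lie lowest of all groups at 2.69 to 2.78.

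Nr1h4, the bile acid receptor, was higher than in DMSO with 1-naphthol, 1,5-naphthalenediol and naphthalene, and was close to DMSO with 2,7-naphthalenediol. In DMSO its level was 1.5, 1.43 and 1.36 in replicates 1, 2 and 3, and with 2,7-naphthalenediol it was 1.39, 1.46 and 1.4. With 1,5-naphthalenediol it was 1.51, 1.58 and 1.64, with naphthalene 1.54, 1.59 and 1.62, and with 1-naphthol 1.70, 1.79 and 1.71. The 1-naphthol arrays lay above every other array, the DMSO and 2,7-naphthalenediol arrays overlapped, and the 1,5-naphthalenediol and naphthalene arrays overlapped each other above them. The rise was 0.31 ± 0.05 (SE, n = 3 against 3, log2) with 1-naphthol, 1.24-fold at an adjusted p of 0.00229. It was 0.16 ± 0.05 with naphthalene (1.11-fold, adjusted p = 0.0331) and 0.15 ± 0.05 with 1,5-naphthalenediol (1.11-fold, adjusted p = 0.0421). The difference with 2,7-naphthalenediol was -0.01 (95% interval -0.12 to 0.09, adjusted p = 0.887).

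Only the 1-naphthol rise of Nr1h4 held when any single array was left out. The 1,5-naphthalenediol call was lost without DMSO replicate 2 (adjusted p = 0.0942), DMSO replicate 3 (0.158), or replicate 2 (0.0895) or 3 (0.118) of the compound, and also after normexp background correction (0.16, 0.123) and with the mean of its probes (0.11, 0.0599). Without these arrays in turn the difference was 0.149, 0.115, 0.149 and 0.117, against 0.149 with all arrays. The naphthalene call was lost without DMSO replicate 2 (0.0763) or 3 (0.127), or naphthalene replicate 2 (0.0776) or 3 (0.0799), and its difference was 0.24 (0.0192) after normexp background correction. With the slide as a block all 3 calls ended, at differences of 0.21 (adjusted p = 0.197) for 1-naphthol, 0.12 (0.118) for 1,5-naphthalenediol and 0.06 (0.725) for naphthalene. The 1,5-naphthalenediol value with the slide as a block is the one without replicate 3. On slide 1 alone this difference was 0.12 (adjusted p = 0.173).

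A second, dimmer probe of Nr1h4 also placed 1-naphthol highest. Its level was 1.23, 1.25 and 1.14 in DMSO, 1.25, 1.20 and 1.21 with 2,7-naphthalenediol, 1.25, 1.31 and 1.3 with 1,5-naphthalenediol, 1.3, 1.31 and 1.31 with naphthalene and 1.47, 1.48 and 1.44 with 1-naphthol. The 1-naphthol arrays again stood above all others, without overlap. In a fit over all probes, chosen after seeing the data, the dimmer probe rose by 0.26 ± 0.04 with 1-naphthol (adjusted p = 0.00182). Its differences with naphthalene (0.10, adjusted p = 0.0656) and 1,5-naphthalenediol (0.08, adjusted p = 0.161) did not pass the threshold, so the calls of the brighter probe for these compounds were not met by the dimmer one.

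**Figure D2:**
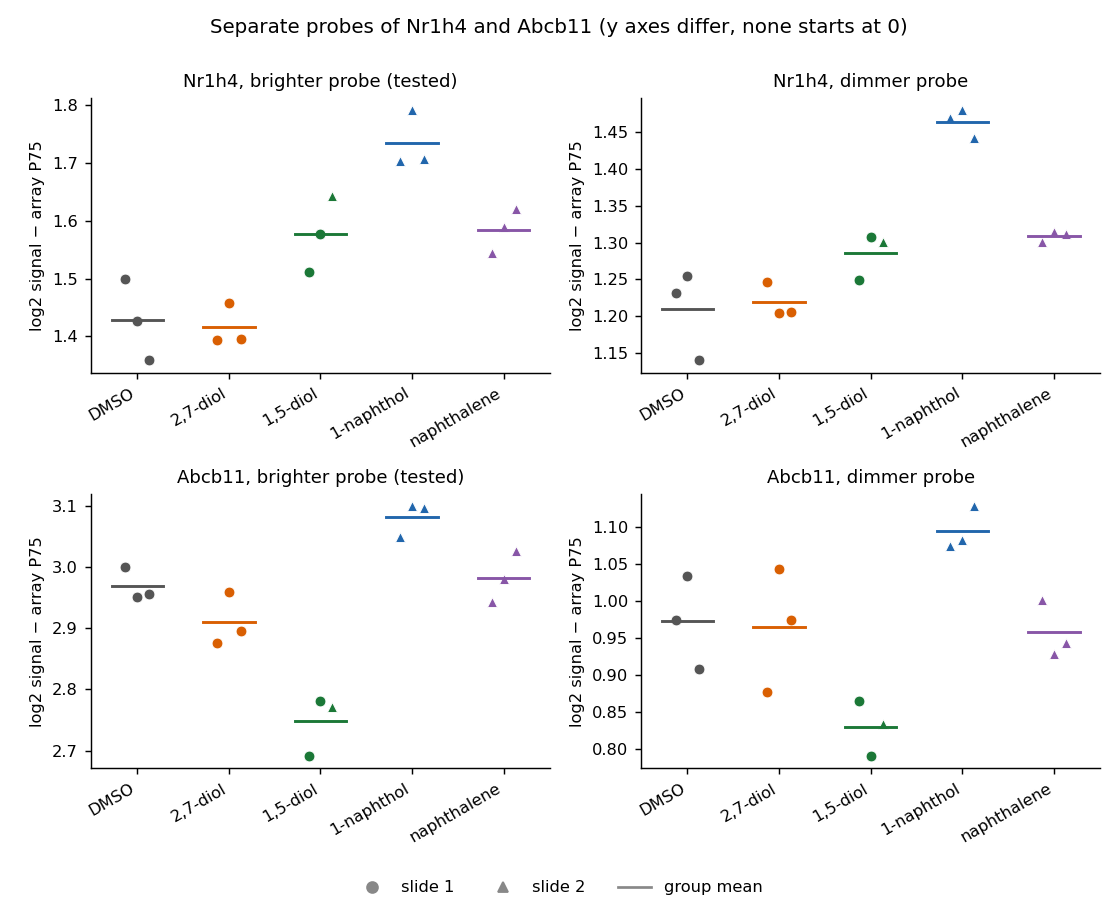
Log2 level relative to the array's 75th percentile of both probes of Nr1h4 and of Abcb11 in each array, by group, with circles for slide 1, triangles for slide 2 and a line at the group mean. Both probes of Nr1h4 are highest with 1-naphthol, and both probes of Abcb11 are lowest with 1,5-naphthalenediol.

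Nr0b2, the repressor induced by FXR, was dim and was not called in any comparison. Its level was -5.95, -6.55 and -6.18 in DMSO, -5.82, -5.89 and -5.81 with 2,7-naphthalenediol, and -6.12, -6.02 and -6.63 with 1,5-naphthalenediol. With 1-naphthol it was -5.91, -6.00 and -5.88, and with naphthalene -6.23, -5.93 and -5.83. The DMSO arrays spread widely, and only the 2,7-naphthalenediol arrays lay above all of them. The differences from DMSO were 0.39 with 2,7-naphthalenediol (95% interval 0.02 to 0.75, adjusted p = 0.151), -0.04 with 1,5-naphthalenediol (adjusted p = 0.909), 0.29 with 1-naphthol (0.227) and 0.23 with naphthalene (0.34). In the slide-block model the Nr0b2 differences were 0.39 (adjusted p = 0.0736), 0.15 (0.505), 0.86 (0.0979) and 0.79 (0.112), so that of 1,5-naphthalenediol changed sign, and none was called. These shifts rest on the 1,5-naphthalenediol array of slide 2, at -6.63.

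Among the synthesis enzymes, Cyp27a1, the mitochondrial sterol hydroxylase that opens the alternative route, was lower than in DMSO with all 4 compounds, by 0.11 to 0.24 (log2). Its level was 4.71, 4.69 and 4.67 in DMSO, 4.57, 4.54 and 4.50 with 2,7-naphthalenediol and 4.42, 4.48 and 4.44 with 1,5-naphthalenediol. With 1-naphthol it was 4.55, 4.58 and 4.56, and with naphthalene 4.58, 4.57 and 4.59. Every DMSO array lay above every array with a compound, and the 1,5-naphthalenediol arrays lay lowest of all. Taken compound by compound, 20.8% to 24.1% of all genes lay below DMSO without overlap. The same order of DMSO above the compounds was seen in the summed hepatocyte markers given above, and the part of that shift in Cyp27a1 was not tested. Against DMSO, 0, 3, 1 and 0 of the 12 markers were called higher and 0, 1, 0 and 4 lower with the 2,7-diol, the 1,5-diol, 1-naphthol and naphthalene. Of all genes 6.2%, 9.41%, 10.2% and 12.5% were called higher and 4.84%, 12.7%, 10.6% and 12.6% lower.

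Cyp27a1 fell by 0.24 ± 0.03 with 1,5-naphthalenediol, to 0.847 times DMSO at an adjusted p of 0.000301. This held in all 14 alternatives tried, of which the slide block equals leaving out replicate 3 of the diol. Cyp27a1 differed by -0.24 with the slide as a block (adjusted p = 0.00108) and by -0.24 on slide 1 alone (adjusted p = 0.0129). It fell by 0.15 ± 0.03 with 2,7-naphthalenediol (0.899 times, adjusted p = 0.0133), which held on slide 1 alone (adjusted p = 0.0492) but not without replicate 3 of the compound (0.0548) or after quantile normalization (-0.08, adjusted p = 0.0983). The fall was 0.12 ± 0.03 with 1-naphthol (0.918 times, adjusted p = 0.0195) and 0.11 ± 0.03 with naphthalene (0.928 times, adjusted p = 0.0278). These last calls ended with the slide as a block, at -0.12 (adjusted p = 0.305) for 1-naphthol and -0.10 (0.357) for naphthalene, and after quantile normalization, at -0.07 (0.128) and -0.04 (0.312). The 1-naphthol call was lost without DMSO replicate 1 (0.0572) or 2 (0.0548) or 1-naphthol replicate 1 (0.0604) or 3 (0.0643). The naphthalene call was lost without DMSO replicate 1 (0.0792), 2 (0.0693) or 3 (0.055) or naphthalene replicate 1 (0.0684) or 2 (0.0734), and also after normexp background correction (-0.10, 0.0625). Without these arrays the naphthalene difference lay between -0.119 and -0.099, against -0.108 with all arrays.

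Of the other synthesis enzymes among the 10 genes, Cyp8b1 and Cyp7b1 were near background. Cyp8b1, the hydroxylase that directs intermediates to cholic acid, was well above background on 0 of 3 DMSO arrays, 2 with 2,7-naphthalenediol, 1 with 1,5-naphthalenediol and 3 each with 1-naphthol and naphthalene. Its signal was -6.62, -7.13 and -6.74 in DMSO, -6.45, -6.38 and -6.76 with 2,7-naphthalenediol, -5.99, -6.76 and -7.02 with 1,5-naphthalenediol, -6.17, -6.38 and -6.23 with 1-naphthol and -6.19, -6.52 and -6.58 with naphthalene. The 1-naphthol and naphthalene arrays lay above all DMSO arrays, and those of both diols overlapped them. Cyp8b1 passed the filter on dim probes only through the 1-naphthol and naphthalene groups. Their place above DMSO is therefore no separate support for a rise. The measured differences from DMSO, whose own signal was on no array well above background, were 0.57 with 1-naphthol (95% interval 0.08 to 1.06, adjusted p = 0.0930), 0.40 with naphthalene (-0.09 to 0.90, 0.209), 0.30 with 2,7-naphthalenediol (-0.19 to 0.79, 0.399) and 0.24 with 1,5-naphthalenediol (-0.25 to 0.73, 0.491). None was called. In the slide-block model they were 1.21 (0.108), 1.04 (0.141), 0.30 (0.317) and 0.45 (0.169).

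Cyp7b1, which hydroxylates the oxysterols of the alternative route, was well above background on 7 of 15 arrays and was not tested. Its signal ran from -7.71 to -6.80 in DMSO, -6.87 to -6.65 with 2,7-naphthalenediol, -7.45 to -5.02 with 1,5-naphthalenediol, -7.49 to -6.44 with 1-naphthol and -7.00 to -6.53 with naphthalene. The groups overlapped, and replicate 1 of 1,5-naphthalenediol stood highest. Cyp7a1, the rate-limiting enzyme of the classical route, was not well above background on any of the 15 arrays, so no fold is given for it.

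The conjugation enzymes gave different results. Baat, which joins bile acids to taurine or glycine, had levels of 2.90, 2.86 and 2.82 in DMSO, 2.85, 2.94 and 2.88 with 2,7-naphthalenediol and 2.90, 2.90 and 2.93 with naphthalene. It was 2.98, 3.08 and 2.93 with 1,5-naphthalenediol and 3.07, 3.08 and 3.06 with 1-naphthol. The arrays of 1-naphthol and 1,5-naphthalenediol lay above all DMSO arrays, and the 1-naphthol arrays were close together. Baat rose by 0.21 ± 0.04 with 1-naphthol (1.16-fold, adjusted p = 0.00566) and by 0.14 ± 0.04 with 1,5-naphthalenediol (1.1-fold, adjusted p = 0.0324). Its differences were 0.03 with 2,7-naphthalenediol (adjusted p = 0.638) and 0.05 with naphthalene (0.379).

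In the slide-block model, whose correction rests on replicate 3 of 1,5-naphthalenediol (2.93), the Baat differences were larger with both compounds. They were 0.17 (adjusted p = 0.0155) with 1,5-naphthalenediol and 0.31 (0.0528, no longer called) with 1-naphthol. The 1,5-naphthalenediol call was lost on slide 1 alone (0.17, adjusted p = 0.0593), after normexp background correction (0.14, 0.0851), and without DMSO replicate 2 (0.0775) or 3 (0.115) or replicate 1 (0.0581) or 2 (0.116) of the compound. Slc27a5, the ligase that activates bile acids before Baat acts, had the narrowest range of group means of the 9 genes, 0.07. Its level was 1.95, 1.90 and 1.93 in DMSO and lay between 1.79 and 2.06 on all other arrays, with every group overlapping DMSO. The difference from DMSO was -0.06 with 2,7-naphthalenediol (95% interval -0.18 to 0.07), 0.001 with 1,5-naphthalenediol (-0.13 to 0.13), -0.02 with 1-naphthol (-0.15 to 0.10) and -0.06 with naphthalene (-0.19 to 0.06).

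Among the transporters, Abcb11, the bile salt export pump, was lower than in DMSO with 1,5-naphthalenediol only among the 4 comparisons. Its level was 3.0, 2.95 and 2.96 in DMSO, 2.88, 2.96 and 2.90 with 2,7-naphthalenediol and 2.94, 2.98 and 3.03 with naphthalene. It was 2.69, 2.78 and 2.77 with 1,5-naphthalenediol and 3.05, 3.10 and 3.10 with 1-naphthol. The 1,5-naphthalenediol arrays lay below, and the 1-naphthol arrays above, all other arrays, and the other groups overlapped. Abcb11 fell by 0.22 ± 0.04 with 1,5-naphthalenediol, to 0.858 times DMSO (adjusted p = 0.00198). The call held in all 14 alternatives, of which the slide block equals leaving out replicate 3 of the diol. Abcb11 differed by -0.23 with the slide as a block (adjusted p = 0.00386) and by -0.23 on slide 1 alone (adjusted p = 0.0202). Its difference was 0.11 with 1-naphthol (adjusted p = 0.0591), which was called after quantile normalization (0.0321) and with the mean of its probes (0.0432). It was -0.06 with 2,7-naphthalenediol (95% interval -0.14 to 0.03, adjusted p = 0.329) and 0.01 with naphthalene (-0.07 to 0.10, adjusted p = 0.819).

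The dimmer probe of Abcb11 was also lowest with 1,5-naphthalenediol, at 0.86, 0.79 and 0.83, against 0.97, 1.03 and 0.91 in DMSO. With 2,7-naphthalenediol it was 0.88, 1.04 and 0.98, with 1-naphthol 1.07, 1.08 and 1.13 and with naphthalene 1.00, 0.93 and 0.94. The lowest and the highest group were those of the brighter probe, again without overlap. In the fit over all probes its difference from DMSO was -0.14 ± 0.05 with 1,5-naphthalenediol (adjusted p = 0.0549) and 0.12 with 1-naphthol (0.0949), neither past the threshold.

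Abcb4, which moves phosphatidylcholine into bile, and Slc10a1, which takes up conjugated bile acids from blood, were not called in any comparison. Abcb4 was -2.50, -2.42 and -2.46 in DMSO, -2.56, -2.34 and -2.36 with 2,7-naphthalenediol, -2.24, -2.37 and -2.31 with 1,5-naphthalenediol, -2.22, -2.29 and -2.35 with 1-naphthol and -2.41, -2.52 and -2.36 with naphthalene. The 1,5-naphthalenediol and 1-naphthol arrays lay above all DMSO arrays, by 0.15 (95% interval 0.01 to 0.29, adjusted p = 0.113) and 0.17 (0.03 to 0.31, adjusted p = 0.0804) on average. After quantile normalization the 1-naphthol difference of Abcb4 was called (0.20, adjusted p = 0.0380). Slc10a1 was -2.02, -2.11 and -2.13 in DMSO, -2.07, -2.04 and -2.05 with 2,7-naphthalenediol, -2.11, -1.89 and -1.94 with 1,5-naphthalenediol, -1.97, -1.82 and -1.89 with 1-naphthol and -2.19, -2.06 and -1.88 with naphthalene. Only the 1-naphthol arrays lay wholly above DMSO, with a difference of 0.19 (95% interval 0.03 to 0.36, adjusted p = 0.0941).

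**Figure D3:**
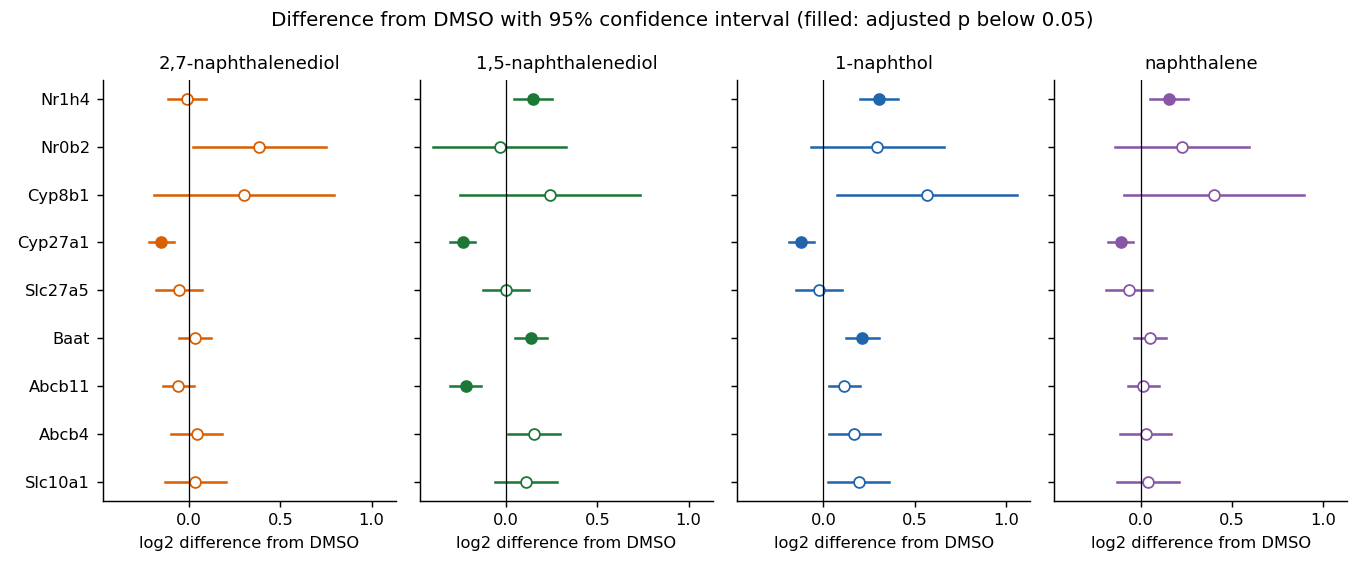
Log2 difference from DMSO (horizontal axis) of the 9 tested genes with each compound, with bars for the 95% confidence interval and filled points where the adjusted p was below 0.05. Cyp27a1 lies below 0 with all 4 compounds, Nr1h4 is higher with 1-naphthol (0.31) than with the other compounds, and Slc27a5 lies between -0.06 and 0.001.

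The 4 compounds were compared in 6 pairs at the same dose and time, each adjusted over all genes. Between 1-naphthol and naphthalene, which differ by a hydroxyl group and were all on slide 2, 0 of 9 genes were called in limma (2.44% of all genes), and 4 had an unadjusted p under 0.05 (17.3% of all genes). The differences of 1-naphthol minus naphthalene were 0.16 for Baat (95% interval 0.07 to 0.25, adjusted p = 0.0621), 0.15 for Nr1h4 (0.05 to 0.25, 0.125), 0.10 for Abcb11 (0.01 to 0.18, 0.216) and -0.01 for Cyp27a1 (-0.08 to 0.06, 0.879). Baat was called with the slide as a block (adjusted p = 0.0423), and on slide 2 alone it was not (0.145). The arrays of 1-naphthol lay above those of naphthalene without overlap for 4 of the 9 genes, Nr1h4, Baat, Abcb11 and Abcb4, and for 11.8% of all genes.

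Between 1,5-naphthalenediol and 1-naphthol, which differ by a further hydroxyl group, 2 of 9 were called, both lower with the diol (9.16% of all genes). Abcb11 was lower by 0.33 ± 0.04 (0.793 times, adjusted p = 0.000484), with the dimmer probe at -0.27 (0.00727). With the slide as a block the Abcb11 difference was -0.31 (0.0215), the same as on slide 2 alone. Both values rest on the single diol array of slide 2, so neither tests the stability of the call. Cyp27a1 was lower by 0.12 (0.0399), a call lost with the slide as a block (0.213), after normexp background correction (0.0582), and without 1,5-naphthalenediol replicate 1 (0.131) or 2 (0.0592) or 1-naphthol replicate 1 (0.0873), 2 (0.122) or 3 (0.104). Nr1h4 differed by -0.16 (adjusted p = 0.0595), and its dimmer probe was called lower (-0.18, 0.0138).

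Between the diols, which differ in the positions of their hydroxyl groups, 2 of 9 were called (14.7% of all genes). Abcb11 was lower with 1,5-naphthalenediol by 0.16 ± 0.04 (adjusted p = 0.0161), and -0.17 (0.0268) with the slide as a block. That call was lost on slide 1 alone (0.0723) and without replicate 2 of 2,7-naphthalenediol (0.0706) or replicate 1 of 1,5-naphthalenediol (0.0542). Nr1h4 was higher with 1,5-naphthalenediol by 0.16 ± 0.05 (0.0405), which was lost with the slide as a block (0.13, 0.129), on slide 1 alone (0.195), after normexp background correction (0.108), with the mean of its probes (0.0749), and without replicate 1 (0.111), 2 (0.0591) or 3 (0.112) of 2,7-naphthalenediol or replicate 2 (0.0905) or 3 (0.129) of 1,5-naphthalenediol. Cyp27a1 differed by -0.09 (95% interval -0.16 to -0.02, adjusted p = 0.0876), and was called after quantile normalization (0.0427).

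Between 2,7-naphthalenediol and 1-naphthol, 3 of 9 were called, all lower with the diol (14.7% of all genes): Nr1h4 by 0.32 (adjusted p = 0.00403), Baat by 0.18 (0.0149) and Abcb11 by 0.17 (0.0152). With the slide as a block, which links these groups only through 1,5-naphthalenediol, the differences were -0.22 (0.430), -0.28 (0.197) and -0.14 (0.605) and none was called. Baat was lost without 2,7-naphthalenediol replicate 3 (0.0508) or 1-naphthol replicate 2 (0.0530), after normexp background correction (-0.11, 0.170) and after quantile normalization (-0.12, 0.0706). Abcb11 was lost without 2,7-naphthalenediol replicate 1 (0.0508) or 3 (0.0523) or 1-naphthol replicate 2 (0.0571) or 3 (0.0523), and after quantile normalization (-0.12, 0.0532). The dimmer probe of Nr1h4 gave -0.25 (0.00454).

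Against naphthalene, 1,5-naphthalenediol had 2 of 9 called (24.9% of all genes), both lower. Abcb11 was lower by 0.24 (adjusted p = 0.00146), and its dimmer probe gave -0.13 (0.0744). With the slide as a block the Abcb11 difference was -0.21 (0.0385), the same as on slide 2 alone. Both values rest on the single diol array of slide 2, so neither tests the stability of the call. Cyp27a1 was lower by 0.13 (0.0114), and -0.14 (0.0852, not called) with the slide as a block. With 2,7-naphthalenediol 1 of 9 was called against naphthalene (15.8% of all genes), Nr1h4, lower by 0.17 (0.0340). That call was lost with the slide as a block (-0.07, 0.838) and without 2,7-naphthalenediol replicate 1 (0.0899) or 3 (0.104) or naphthalene replicate 2 (0.0797) or 3 (0.0859), and the difference was -0.26 (0.0167) after normexp background correction. Nr0b2, Slc27a5, Cyp8b1, Abcb4 and Slc10a1 were called in 0 of the 6 pairs, with differences of -0.42 to 0.16, -0.04 to 0.07, -0.33 to 0.17, -0.13 to 0.14 and -0.16 to 0.15 and lowest adjusted p of 0.118, 0.437, 0.375, 0.179 and 0.182. In the order of Nr1h4 levels, neighbours were thus not separated by the test between 2,7-naphthalenediol and DMSO, between 1,5-naphthalenediol and naphthalene, or between naphthalene and 1-naphthol.

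The wider pathway was read from 4 gene lists, whose counts below include those of the genes above that belong to them and are set against the shares of all genes given above. Of 21 genes listed for bile acid synthesis and conjugation, 16 were tested. Not all of these are enzymes of the route, since the list also holds the lipid carriers Star, Stard5 and Scp2. With 2,7-naphthalenediol 0 were higher and 2 lower, with 1,5-naphthalenediol 2 and 5, with 1-naphthol 2 and 4, and with naphthalene 0 and 4. The median differences were -0.07, -0.05, -0.01 and -0.08. Beside Cyp27a1, the lower genes, named after their values were seen, were Stard5 with every compound except 1,5-naphthalenediol, Hsd3b7 and Acaa1a with every compound except 2,7-naphthalenediol, and Scp2 and Acot8 with 1,5-naphthalenediol. Hsd3b7, the steroid dehydrogenase that acts after the first hydroxylation, fell by 0.33 ± 0.05 with 1,5-naphthalenediol (adjusted p = 0.000862), by 0.27 with 1-naphthol (0.00508) and by 0.19 with naphthalene (0.0203), and differed by -0.13 with 2,7-naphthalenediol (0.122). In the slide-block model it was -0.29 (0.00331), -0.16 (0.345) and -0.07 (0.665) for the first 3 of these. The naphthalene call was also lost after normexp background correction (-0.08, 0.184) and without DMSO replicate 2 (0.0736) or naphthalene replicate 1 (0.0658) or 2 (0.0511).

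Acox2, the peroxisomal oxidase that shortens the bile acid side chain, rose with 1,5-naphthalenediol by 0.62 ± 0.15 (adjusted p = 0.0126), and 0.67 (0.0201) with the slide as a block. Its rise with 1-naphthol, 0.50 (0.0366), was lost with the slide as a block (0.65, 0.248) and without DMSO replicate 2 (0.0975) or 3 (0.113) or 1-naphthol replicate 1 (0.0987), 2 (0.101) or 3 (0.0622). The differences were 0.41 with naphthalene (0.0661, called without naphthalene replicate 1 at 0.0235) and 0.19 with 2,7-naphthalenediol (0.426). With the slide as a block the synthesis list had 0 higher and 2 lower with 2,7-naphthalenediol, 3 and 4 with 1,5-naphthalenediol, and 0 and 0 with both 1-naphthol and naphthalene. That model called 15.1%, 22.1%, 1.13% and 0.727% of all genes with the 4 compounds.

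Of 17 bile acid and phospholipid transporters, 14 were tested. With 2,7-naphthalenediol 1 was higher and 0 lower, with 1,5-naphthalenediol 3 and 1, with 1-naphthol 2 and 0, and with naphthalene 1 and 0, and the median differences were 0.05, 0.10, 0.16 and 0.03. The higher genes were the exporters Abcc4, with every compound, Abcc2, with 1,5-naphthalenediol and 1-naphthol, and Abcc3, with 1,5-naphthalenediol, all chosen after their values were seen. Abcb11 was the lower one. Abcc4, an exporter on the blood side of the hepatocyte, rose by 0.33 ± 0.05 with 2,7-naphthalenediol (adjusted p = 0.00369), 0.31 with 1,5-naphthalenediol (0.00129), 0.26 with naphthalene (0.00552) and 0.19 with 1-naphthol (0.0223). Abcc4 was called in the slide-block model with all 4 compounds, at 0.33 (0.00178), 0.37 (0.000397), 0.43 (0.0353) and 0.36 (0.0445).

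Normexp background correction ended the Abcc4 call with naphthalene (0.15, adjusted p = 0.0660) and with 1-naphthol (0.09, 0.290), and the 1-naphthol call was lost without any of the 3 DMSO arrays (0.0568, 0.0630 and 0.0513) or 1-naphthol replicate 2 (0.0548) or 3 (0.0840). Abcc2, the canalicular exporter of organic anions, rose by 0.30 ± 0.05 with 1,5-naphthalenediol (0.00157) and by 0.26 with 1-naphthol (0.00659), and was 0.28 (0.00636) and 0.19 (0.301) with the slide as a block. Abcc3, another exporter to the blood side, rose by 0.49 ± 0.07 with 1,5-naphthalenediol (0.000838), and 0.51 (0.00206) with the slide as a block. The 1,5-naphthalenediol arrays thus held higher Abcc2, Abcc3 and Abcc4 beside lower Abcb11.

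Of 22 receptors and regulators of bile acid genes, 17 were tested, and every called gene was higher: 5 with 2,7-naphthalenediol, 5 with 1,5-naphthalenediol, 7 with 1-naphthol and 9 with naphthalene, with medians of 0.05, 0.09, 0.15 and 0.20. Of all genes 6.2%, 9.41%, 10.2% and 12.5% were called higher. In the slide-block model, which called 15.1%, 22.1%, 1.13% and 0.727% of all genes, the counts were 6, 5, 1 and 1, again with 0 lower. Ppara, the fatty acid receptor, rose with every compound, by 0.73 ± 0.08 with 1,5-naphthalenediol (adjusted p = 6.49e-05), 0.63 with 1-naphthol (0.000772), 0.40 with naphthalene (0.00479) and 0.30 with 2,7-naphthalenediol (0.0285). It was still called with the slide as a block for 1-naphthol (0.86, 0.00945) and naphthalene (0.63, 0.0424). The 2,7-naphthalenediol call was lost without DMSO replicate 1 (0.0581), 2 (0.0681) or 3 (0.0861) or replicate 2 (0.0903) or 3 (0.0863) of the compound.

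Fgfr4, the receptor through which intestinal FGF lowers bile acid synthesis, rose by 0.50 ± 0.08 with 2,7-naphthalenediol (adjusted p = 0.00470), 0.29 with naphthalene (0.0244), 0.28 with 1-naphthol (0.0312) and 0.27 with 1,5-naphthalenediol (0.0336). After normexp background correction the first of these was 0.31 (0.00493). Under the slide block they were 0.50 (0.00311), 0.52 (0.0722), 0.51 (0.0745) and 0.35 (0.0113). The calls for naphthalene, 1-naphthol and 1,5-naphthalenediol were lost after quantile normalization (0.0745, 0.0534 and 0.0717) and without DMSO replicate 1 (0.0735, 0.0879 and 0.104) or 3 (0.0750, 0.0924 and 0.0949). They were also lost without naphthalene replicate 1 (0.0612) or 3 (0.0672), 1-naphthol replicate 1 (0.0504), 2 (0.1) or 3 (0.0847), and 1,5-naphthalenediol replicate 1 (0.0570) or 2 (0.110), each for its own compound. Mafg, a small Maf protein that represses bile acid synthesis genes, rose by 0.37 ± 0.06 with naphthalene (0.00340), 0.35 with 2,7-naphthalenediol (0.00716) and 0.26 with 1-naphthol (0.0149), and differed by 0.10 with 1,5-naphthalenediol (0.279). The naphthalene and 1-naphthol calls of Mafg ended with the slide as a block (0.28, 0.209 and 0.17, 0.464) and with the mean of its probes (0.14, 0.0893 and 0.12, 0.177), and the 1-naphthol call without DMSO replicate 1 (0.0502) or 1-naphthol replicate 3 (0.0561).

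Of 18 other FXR target genes, 14 were tested. With 2,7-naphthalenediol 2 were higher and 1 lower, with 1,5-naphthalenediol 4 and 3, with 1-naphthol 0 and 0, and with naphthalene 3 and 2, and the medians were 0.01, -0.02, -0.005 and -0.05. The called genes moved in both directions with each diol and with naphthalene, and with 1-naphthol, where limma called none, 4 of 14 had an unadjusted p under 0.05, as had 36.1% of all genes. Pdk4, a kinase that restrains pyruvate oxidation, rose by 0.64 ± 0.15 with naphthalene (adjusted p = 0.0114), a call lost with the slide as a block (0.84, 0.124), and by 0.31 (0.00352) after normexp background correction. It rose by 0.45 with 1,5-naphthalenediol (0.0486), a call lost after normexp (0.19, 0.0501) and quantile normalization (0.40, 0.0722), and without DMSO replicate 1 (0.110), 2 (0.125) or 3 (0.0764) or replicate 1 (0.167) or 2 (0.0647) of the compound. Vldlr, a lipoprotein receptor, fell by 0.68 ± 0.21 with 1,5-naphthalenediol (0.0380), where it was well above background on 2 of 3 arrays. The Vldlr fall was 0.21 (0.0238) after normexp background correction, and the call was lost on slide 1 alone (-0.86, 0.0590) and without any of the DMSO arrays (0.0907, 0.104 and 0.0605) or replicate 1 (0.0519) or 2 (0.118) of the compound.

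**Figure D4:**
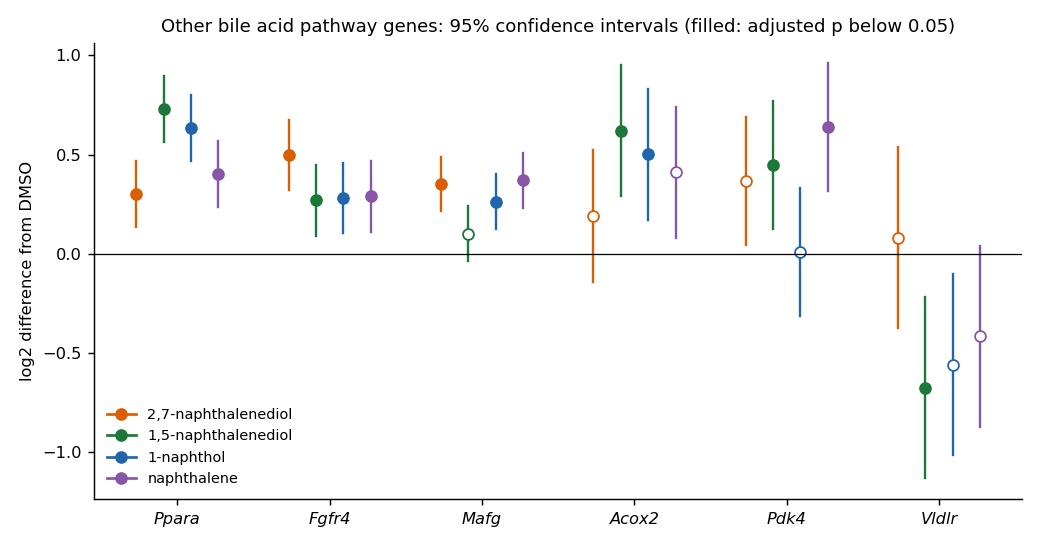
Log2 difference from DMSO (vertical axis) of Ppara, Fgfr4, Mafg, Acox2, Pdk4 and Vldlr with each compound, with bars for the 95% confidence interval and filled points where the adjusted p was below 0.05. Ppara and Fgfr4 are filled above 0 with all 4 compounds, and Vldlr is filled below 0 with 1,5-naphthalenediol (-0.68).

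The genes whose pattern over the 15 arrays was most like that of Nr1h4 were Gstm1, Hmgn3 and C18h18orf32, with root mean square differences of 0.0662, 0.0669 and 0.0687 on the log2 scale after centring, where the spread of Nr1h4 itself was 0.125. For Cyp8b1, the gene with the widest range of group means (0.57), they were Rprm (0.168), Dmrt1 (0.200) and Tmem120b (0.200), against a spread of 0.309 that includes signals near background. The ranges of group means of the other genes were 0.42 for Nr0b2, 0.33 for Abcb11, 0.32 for Nr1h4, 0.24 for Cyp27a1, 0.21 for Baat, 0.19 for Slc10a1 and 0.17 for Abcb4.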

How the data were processed

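Per the labels' protocols, total RNA was labelled with the dye Cy3. The authors' deposited files come from Feature Extraction 10.7.1.1 (protocol GE1_107_Sep09, build rn4 per the file headers). For each spot they hold a processed intensity, background-subtracted but not normalized between arrays, beside median signals of the spot and its background. Control spots and outlier spots (250 to 354 per array) were left out. A level is the log2 of a deposited intensity minus that of the array's 75th percentile, averaged over the spots of a probe. Signal over background limits precision: the 75th percentile was 1718 to 2074 intensity units, and no gene spot was saturated. Probes were named through the accession in a RefSeq table of GRCr8 (21229 of 45598 matched a symbol), so coordinates come from that table alone. A probe was kept when well above background on all 3 arrays of a group (23562, of which 7 lacked a value), and the brightest probe stood for a gene.

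Tests used limma 3.58.1 in R 4.3.3 and 1 model of 5 group means, two-sided moderated tests and Benjamini-Hochberg adjustment over 19803 genes, with 95% intervals. The p-values measure the spread between arrays. Alternatives were the slide or replicate number as a block, each slide alone, normexp background correction (offset 50, on median signals, since the files hold no mean signals), quantile normalization, the mean of a gene's probes, stricter and no filters on dim probes, and leaving out each array. The steps were tested on simulated data. Figures were drawn with matplotlib 3.10.9 (Python 3.11.15). The naming rule took all 10 genes (those not named in a pair of compounds are given by range), the pathway genes past the F test that had the 3 largest changes per compound, and Cyp7a1 and Fgfr4. The genes and lists were chosen with earlier results of these data known. The lists hold bile acid synthesis genes, transporters, receptors and regulators, other FXR targets, and markers of 5 cell types.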

Additional observations from a re-analysis of the deposited data

How the results depend on the processing

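No difference of the 10 genes changed direction as a called value under any alternative. The number of the 9 genes called moved by more than 1.5 times as follows, for the 2,7-diol, the 1,5-diol, 1-naphthol and naphthalene against DMSO (1, 4, 3 and 2 in the report). In the slide-block model 1-naphthol and naphthalene had 0, with normexp 1,5-naphthalenediol had 2 and naphthalene 1, and with quantile normalization 2,7-naphthalenediol had 0 and naphthalene 1. With no filter on dim probes the compounds other than 1-naphthol had 0, 2 and 0, and on slide 1 alone 1,5-naphthalenediol had 2. Between compounds, the slide block gave 1 for 1-naphthol against naphthalene, 1 for 1,5-naphthalenediol against 2,7-naphthalenediol, against 1-naphthol and against naphthalene, and 0 for 2,7-naphthalenediol against 1-naphthol and against naphthalene. For 1,5- against 2,7-naphthalenediol, normexp and the mean of probes gave 1, and no filter and slide 1 alone gave 0. No filter gave 1 for 1,5-naphthalenediol against 1-naphthol and against naphthalene, 1 for 2,7-naphthalenediol against 1-naphthol and 0 against naphthalene. Slide 2 alone gave 0 for 1,5-naphthalenediol against 1-naphthol and against naphthalene, but holds 1 array of this diol, so these counts say nothing about stability. Quantile normalization gave 1 for 2,7-naphthalenediol against 1-naphthol. Leaving out each array gave 0 to 1, 2 to 4, 2 to 3 and 0 to 1 against DMSO in the order above, 0 to 0 for 1-naphthol against naphthalene, 0 to 1 for the diols, 1 to 3 for 1,5-naphthalenediol and 1 to 3 for 2,7-naphthalenediol against 1-naphthol, 2 to 2 and 0 to 1 for them against naphthalene, and 4 to 5 in the F test. The fit with no filter adjusts over more probes, and it also gave larger standard errors at the same differences. For Cyp27a1 with 2,7-naphthalenediol against DMSO the standard error was 0.0404, against 0.0316 with the filter. The cause of these and of the other shifts was not tested.

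The replicate numbers gave no pairing: deviations from the group means correlated above 0.1 in 2 of 30 pairs of arrays with a shared number. The correlations of each array with arrays of other groups were also averaged by replicate number. For 3 of 15 arrays the highest mean was that of the array's own number. The replicate block kept 17 of the 20 calls, and gave 1 for 1,5-naphthalenediol against 2,7-naphthalenediol and 1 against 1-naphthol. Over all genes, counts of calls moved by more than 1.5 times with the slide block for 1-naphthol (223, against 4128 without it) and naphthalene (144, 4980) against DMSO, for 1,5-naphthalenediol against 1-naphthol (371, 1814) and naphthalene (1677, 4935), for 2,7-naphthalenediol against 1-naphthol (16, 2916) and naphthalene (4, 3133), and in the F test (5196, 8852). With no filter they were 519 (2186), 2422 (4386), 1966 (4128) and 2181 (4980) against DMSO in the order above, 142 (483) for 1-naphthol against naphthalene, 1375 (2914) between the diols, 572 (1814) and 2527 (4935) for the 1,5-diol and 1186 (2916) and 1022 (3133) for the 2,7-diol against 1-naphthol and naphthalene, and 4715 in the F test. For 1-naphthol against naphthalene normexp called 801 and slide 2 alone 53. With that 1 diol array, slide 2 alone called 15 and 380 for the 1,5-diol against 1-naphthol and naphthalene, and slide 1 alone 1593 between the diols. Leaving out each array gave, over all genes, 732 to 1614, 3002 to 4381, 1987 to 3107 and 2583 to 4977 against DMSO in the order above, 176 to 473 for 1-naphthol against naphthalene, 1823 to 2625 between the diols, 694 to 3409 and 3146 to 5851 for the 1,5-diol and 1180 to 1801 and 1180 to 2479 for the 2,7-diol against 1-naphthol and naphthalene. The count of 3409 was without replicate 3 of 1,5-naphthalenediol, its array on slide 2. The share of higher calls for 1-naphthol against naphthalene was 42.7%, 27.7% with normexp and 55.8% with quantile normalization. Depth limits Cyp7a1, Cyp7b1 and Cyp8b1, whose signals lay near background.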
